A study of Mus musculus with 21 samples.

Results

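In RNA from mouse circumvallate taste buds, 347 of the 32052 loci of the deposited expression table collected many fragments of which few matched an annotated transcript. A locus here is a stretch of genome covered by overlapping gene models of the authors' merged annotation. A member had a mean of at least 100 total fragments and a mean of compatible fragments above 0 but under 10% of the total, and it held no bitter taste receptor gene (Tas2r). Without those receptor genes, 11293 loci had a total of at least 100. Of these, 347 were members, 10743 had a compatible share of 10% or more (called the other loci here), and 203 had no compatible fragment. The rule left out 12 Tas2r loci that met its other conditions. Because the compatible and total means chose the members, both are given as a description and neither was tested.

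The series holds 21 libraries of total RNA, primed with oligo(dT), from taste buds of the circumvallate papilla at the back of the tongue. All animals were wild type C57BL/6J mice, adults of 20 to 24 weeks, and the labels name 3 groups of 7 libraries called Ad lib, Satiated and Hungry. The deposited table gives, per locus, the mean and variance of fragments that the authors had scaled by size factors (signal, not divided by length), and the values of its 3 conditions differed at 0 of the 32052 loci, so no comparison of feeding groups was possible. Each ± below is an SD, the square root of the authors' variance. That variance matched squares summed within 3 sets of libraries and divided by 21, so it leaves out differences between the sets. No value per library was available, so a difference between loci had no replicate check. In bulk tissue, fewer cells of a type and less RNA per cell cannot be told apart.

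In the quantification used by Cufflinks and Cuffdiff, a fragment is compatible when its alignment fits the exons and splice junctions of a transcript in the annotation supplied, while the total takes in every fragment assigned to the locus. The total can thus hold fragments that fit no transcript of that annotation. Priming with oligo(dT) starts cDNA at the poly(A) tail of a transcript. Taste buds contain type I glia-like cells, type II receptor cells for sweet, umami and bitter, and type III sour-sensing cells, embedded in lingual epithelium.

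The members included very short models. Sequences of 4 are shown because a whole model fits on a line and because some of them repeat elsewhere. The sequences are GENCODE M21 transcripts on GRCm38, written 5′ to 3′ in the sense of the model. Gm26015 is annotated as a small nucleolar RNA of 125 bases on the minus strand of chromosome 12 (12:65405846-65405970). Gm24710 on chromosome 10 (10:37931680-37931780, plus strand), Gm24975 on chromosome 6 (6:47773329-47773429, plus strand) and Gm23992 on chromosome 9 (9:4371269-4371335, minus strand) are annotated as microRNA genes. Capitals in these last sequences mark the longest run that the 3 microRNA models share.
Gm26015: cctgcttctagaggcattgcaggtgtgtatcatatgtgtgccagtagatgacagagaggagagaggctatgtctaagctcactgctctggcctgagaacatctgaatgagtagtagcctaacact
Gm24710: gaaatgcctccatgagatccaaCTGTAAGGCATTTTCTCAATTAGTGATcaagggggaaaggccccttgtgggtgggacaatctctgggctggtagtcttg
Gm24975: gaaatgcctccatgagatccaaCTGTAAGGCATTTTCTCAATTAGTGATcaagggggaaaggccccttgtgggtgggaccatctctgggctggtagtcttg
Gm23992: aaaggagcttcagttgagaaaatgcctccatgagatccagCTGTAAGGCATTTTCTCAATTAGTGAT
Gm24710 and Gm24975 were identical at 100 of 101 bases and differed by A80C, counted from 1 at the 5′ end of Gm24710. The run of 27 bases shared by all 3 microRNA models stood in transcripts of 145 GENCODE M21 genes. In 103 of them it was on the strand shown and in 42 on the other strand alone. Fragments from such repeated sequence can be placed at several loci, so the totals of these microRNA models are uncertain.

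Mir31 on chromosome 4 (4:88910557-88910662, minus strand) was the member with a named microRNA as its only symbol. The model is the hairpin, and capitals mark both mature arms. The arms themselves follow as RefSeq gives them on GRCm38.p6, with the seed, bases 2 to 8, in capitals.
Mir31: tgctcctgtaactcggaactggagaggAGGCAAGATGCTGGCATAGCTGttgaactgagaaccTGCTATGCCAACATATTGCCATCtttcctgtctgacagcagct
mmu-miR-31-5p: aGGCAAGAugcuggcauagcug
mmu-miR-31-3p: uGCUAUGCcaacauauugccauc
The Mir31 locus held 132.5 ± 67.2 total fragments and 0.0463 ± 0.198 compatible ones.

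Together the members held 1.10% of all total fragments, 0.0387% of compatible fragments and 13.4% of the fragments that were total but not compatible. Their totals ran from 100.1 to 14578 with a median of 298, and 64 of the 347 reached 1000. Compatible means ran from 0.0351 to 501 with a median of 5.27, and 126 members had a mean of at least 10. The compatible share was under 1% at 145 members, from 1 to 5% at 125 and from 5 to 10% at 77. In the plot of compatible against total fragments the members occupy the whole range under the dashed line, with no gap that separates them from the loci above it.

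**Figure D1:**
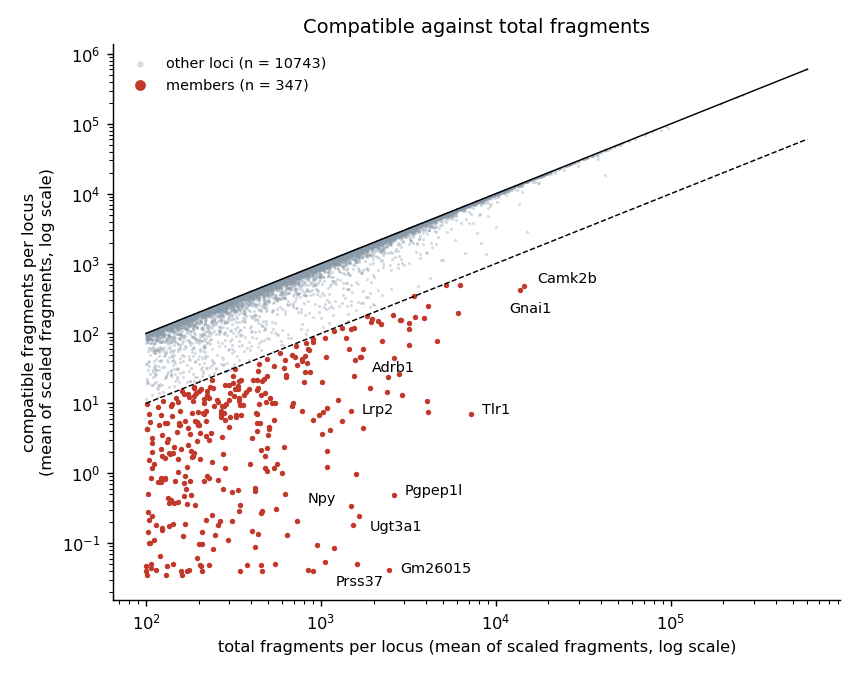
Compatible against total fragments per locus, each a mean of scaled fragments on a log axis, for the 347 members (red) and the 10743 other loci (grey). The solid line marks equality and the dashed line a compatible share of 10%. Camk2b and Gnai1 lie farthest to the right among members, and Gm26015 and Prss37 lie near the bottom edge.

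At the bottom of that range, compatible values rested on few fragments or on fragments of 1 library. A variance that only 1 library with fragments can give was found at 40 members, and at 43 members the compatible mean amounted to no more than 3 scaled fragments over all 21 libraries. Gm26015, the member with the lowest share, had a compatible mean of 0.0417 ± 0.179, which is 0.876 scaled fragments summed over the 21 libraries, beside a total of 2460 ± 314. Prss37, a protease-like gene known from testis, followed with 0.0504 ± 0.216 compatible and 1614 ± 266 total fragments. The other members among the 5 lowest shares were Gm5224, with 902 total fragments, the locus of Gm22970 and RP23-354M3.2, with 844, and Gm15148, with 1054. Each of these 5 had a compatible share of at most 0.00513%, while their totals were far from the limit of 100.

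Loci near the limits of the rule had like values on either side. Just inside the 10% share lay Cpne8 with Gm6746 at 9.99%, Zdhhc15 with Gm22430 at 9.71% and Tnks with Gm9939 at 9.57%. Just outside lay Irs2 with 9530052E02Rik at 10.1%, Cyp2j11 at 10.1% and Gm340 at 10.2%. At the total of 100, the nearest members were 4932412D23Rik at 100.1, Gm11809 at 100.4 and Trdn at 101.1, and the nearest loci left out were Gm10655 at 99.9, Gm12518 at 99.6 and Gm11874 at 99.5. Plcb2, the phospholipase that carries taste signals in type II cells, was not a member. It had 2833 compatible of 14992 ± 2338 total fragments, a share of 18.9%.

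The most abundant member was Camk2b, the beta subunit of calcium/calmodulin-dependent protein kinase II, with 14578 ± 11452 total and 475 ± 89.99 compatible fragments. Its total varied far more between libraries than its compatible value. Gnai1, the alpha subunit of an inhibitory G protein, had a nearly equal total with a much smaller spread, 13750 ± 1527, and 423 ± 120.2 compatible fragments. Gnai1 had as its nearest locus on the lower-coordinate side Gnat3, the taste G protein gustducin, at a distance of 245300 bases and with 24576 compatible fragments. Tlr1, a receptor for bacterial lipopeptides that pairs with Tlr2, had 7199 ± 593 total and only 6.998 ± 5.82 compatible fragments. Its total was the steadiest of all members, with a coefficient of variation of 0.0824.

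Lrrc6, needed for the assembly of dynein arms in cilia, had the highest compatible mean of the members, 501 ± 103, beside a total of 6277 ± 1063. The locus of Spry4, an inhibitor of receptor tyrosine kinase signalling, with Gm27369 and Gm27804, had 6084 ± 541 total and 194 ± 71.05 compatible fragments. Tnks, the poly-ADP-ribosylating enzyme tankyrase, shares its locus with Gm9939 and had 5190 ± 666 total and 497 ± 157 compatible fragments. Hint3, a nucleotide hydrolase of the histidine triad family, had 4112 ± 522 total and 249 ± 49.6 compatible fragments. The processed pseudogene Gm4149, the long noncoding gene D630024D03Rik and a long noncoding model at the Norad locus complete the 10 members with most total fragments. The plot of these 10 shows both values, whose distance follows from the rule.

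**Figure D2:**
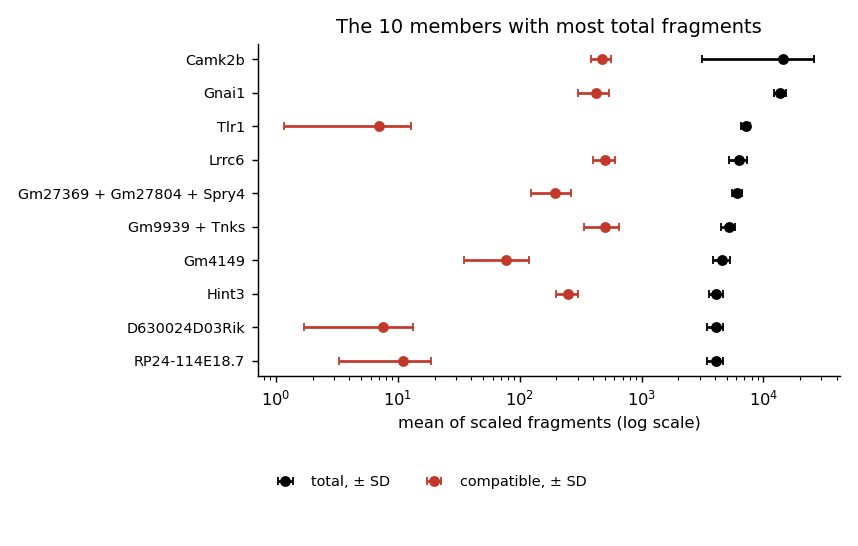
Total (black) and compatible (red) fragments of the 10 members with most total fragments, as means of scaled fragments with the SD from the authors' variance, on a log axis. Camk2b has the widest SD of the totals, 11452 around 14578, and Tlr1, D630024D03Rik and the model at the Norad locus, on the bottom line under its clone name, have compatible means of 6.998, 7.51 and 11.0.

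Several further members were chosen for description by their known roles after their values had been seen. Among 10 genes of immunity, total fragments ran from 104 to 7199 with a median of 188, and all 10 were the only symbol at their locus. Besides Tlr1 these included Tlr13, a sensor of bacterial ribosomal RNA, with 1129 ± 281 total and 4.16 ± 7.73 compatible fragments. Mx1, an interferon-induced antiviral GTPase, had 489 ± 190.2 total and 43.4 ± 41.6 compatible fragments. Il4, a cytokine of type 2 immunity, had 222 ± 63.3 total and 7.77 ± 4.61 compatible fragments, and the gene of the kinesin Kif3a, with 722 compatible fragments, lay 1014 bases away on the opposite strand. Il7r, a lymphocyte cytokine receptor, had 121 ± 73.5 total and 6.88 ± 22.0 compatible fragments, so its compatible SD was larger than its mean. Cxcr5, a chemokine receptor of B cells, had 202 ± 60.7 total and 4.86 ± 6.32 compatible fragments. Tnfsf13b, Msr1, Defb14 and Ulbp1 completed this group. None of its genes had a compatible share above the 8.87% of Mx1.

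Among 11 genes of cell signalling, total fragments had a median of 784 and compatible fragments a median of 7.80. Npy, the appetite-stimulating neuropeptide Y, had 1482 ± 522 total and 0.336 ± 1.04 compatible fragments, and its nearest loci in the table were 353208 and 212887 bases away on either side. Its total was thus high at a locus without near neighbours. Adrb1, the beta-1 adrenergic receptor, had 1688 ± 331 total and 45.4 ± 26.9 compatible fragments. Casr, the calcium-sensing receptor linked to kokumi taste, shares its locus with Gm25902 and had 784 ± 163 total and 40.5 ± 28.1 compatible fragments. Rgs9, Rgs18, Grm3, Grin2a, Gpr31b and Prok2 completed this group together with Camk2b and Gnai1. Of 3 ion channel genes, Kcnj11 had 123 total fragments, the locus of Kcnma1 207 and Best3 215.

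Some members are known from tissues other than taste epithelium, and their compatible values ranged widely. Cdh5, the cadherin of blood vessel endothelium, had 0.0403 ± 0.171 compatible and 209 ± 69.4 total fragments. Krt9, a keratin of palm and sole skin, had 0.0966 ± 0.410 compatible and 209 ± 63.4 total fragments, and it lies between the loci of Krt19 and Krt14, with 18161 and 2637 compatible fragments. Alx1, a transcription factor of craniofacial development, had 0.0926 ± 0.397 compatible and 952 ± 220.5 total fragments. Of 6 developmental transcription factors looked at in this way, 4 had a compatible share under 1%, and so did 4 of 6 structural and junction proteins of other tissues. Over all members 145 of 347 had such a share. Both small groups were picked after their values had been seen, so no difference is read from them. The highest compatible means in these groups were 6.75, at Klf12, and 36.03, at the locus of Sgcd. Hrg, the plasma histidine-rich glycoprotein, had 14.6 ± 9.75 compatible and 2394 ± 424 total fragments, and its lower-side neighbour at 11305 bases was Fetub with 38831 compatible fragments.

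Gene classes other than protein coding made up a much larger part of the members than of the other loci. Protein-coding loci were 195 of the 347 members (56.2%) and 10217 of the 10743 other loci (95.1%). Long noncoding loci were 77 members (22.2%) beside 169 other loci (1.57%), and pseudogene loci were 49 (14.1%) beside 340 (3.16%). The members also held 9 microRNA loci beside 0 others, 7 immune receptor segments beside 4, 5 other small RNAs beside 1 and 5 loci with no reference gene beside 12. No reference gene means that no symbol of the locus was matched to the reference. A locus with several symbols took the class of its coding gene where it had one. Noncoding loci below means all loci outside the protein-coding class. They thus include the immune receptor segments and the loci with no reference gene. The other loci leave out loci without a compatible fragment. Of all 276 long noncoding loci with a total of at least 100, 27.9% were members, against 1.87% of the 10442 coding ones. By the same count, members were 27.3% of 33 microRNA loci but only 5.81% of 86 other small RNA loci. They were 11.7% of 420 pseudogene loci, 63.6% of 11 immune receptor segments and 20% of 25 loci with no reference gene. These shares are a description without a test, since loci share chromosomes and clusters and are no replicates.

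**Figure D3:**
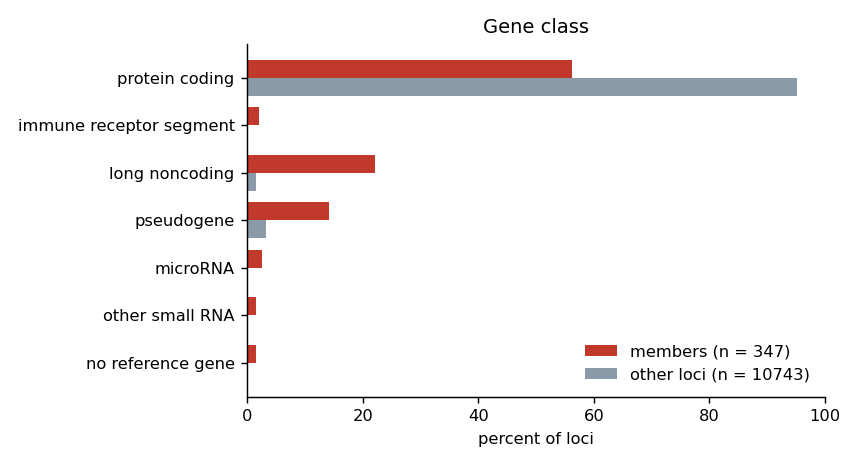
Percent of loci in each gene class among the 347 members (red) and the 10743 other loci (grey). Protein-coding loci are 56.2% of members and 95.1% of other loci, and long noncoding loci are 22.2% and 1.57%.

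Among long noncoding members, D630024D03Rik had 4068 ± 624 total and 7.51 ± 5.80 compatible fragments over a model of 5 exons on chromosome 11. A clone-named model (2:156391831-156392979, minus strand), called here the Norad locus, had 4064 ± 629 total and 11.0 ± 7.70 compatible fragments on a single exon of 1149 bases. RefSeq places Norad, a long noncoding RNA that binds Pumilio proteins, over this model and lets it reach 3768 bases farther on the lower-coordinate side, which is the 3′ side of this minus-strand gene. Gm26535 followed with 2786 ± 623 total and 26.4 ± 23.0 compatible fragments. Firre, a nuclear long noncoding RNA of the X chromosome, had 1957 total and 160 compatible fragments. By biotype, 56 members and 88 other loci were long intergenic noncoding RNAs.

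Processed pseudogenes were 41 of the 49 pseudogene members and 284 of the 340 other pseudogene loci, nearly the same share. Gm4149, a processed pseudogene of 363 bases on chromosome 13 (13:75644864-75645226), had 4597 ± 737 total and 77.6 ± 42.6 compatible fragments, and GENCODE M21 places Mir682 inside it. Vmn1r-ps151, a vomeronasal receptor pseudogene, had 1539 ± 348 total and 24.6 ± 13.1 compatible fragments. Gm7577 had 1532 ± 239 total and 0.181 ± 0.458 compatible fragments, and Nov, a matricellular protein gene with 23628 compatible fragments, lay 10492 bases away on its lower-coordinate side. Pseudogenes copy other genes, so fragments of parent genes may be split between them and these values are uncertain.

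The small RNA members were short models, and with the limit on the total each had to hold many fragments for its length. Among microRNA models, Gm24710 had 551 ± 157 total and 0.306 ± 0.430 compatible fragments, Gm24715 had 548 ± 157 and 0.0504 ± 0.216, and Gm25442 had 494 ± 179 and 2.29 ± 2.63. Gm24975 and Gm23992, which share the run printed above, had 187 ± 26.6 and 172 ± 88.8 total fragments. Thus 2 models identical at all but 1 base, Gm24710 and Gm24975, differed in total by more than the SD of either. Of the other small RNAs, Gm24402 had 343 ± 105 total fragments, Gm22242 had 182 ± 65.0, and Snora24, a guide for modification of ribosomal RNA, had 104 ± 29.2. Per kb of locus the highest total of all members was that of Gm26015, 19683 fragments, followed by Gm4149 with 12664.

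Immunoglobulin variable segments were led by Ighv6-4, with 3171 ± 636 total and 68.2 ± 17.9 compatible fragments. Its neighbour Ighv6-3 had 780.4 ± 135 total and 43.5 ± 10.9 compatible fragments, and Gm20730, annotated as a light chain variable gene on chromosome 6, had 618 ± 154 and 2.39 ± 3.41. Of the 4 Ighv symbols at loci with a total of at least 100, 3 were at members, all of the Ighv6 subgroup. Variable segments of a subgroup resemble each other, so their fragments may be split between them, which was not tested. Among the loci whose symbol matched no reference gene, RP23-36B4.2 had 1183 ± 220.2 total fragments, Gm9966 had 496 ± 209 and Gm20563 had 265 ± 168. By position, GENCODE M21 places exons of Gm19640 in the first of these and exons of Gm48228 and Selenok-ps8 in Gm20563.

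Gene families with at least 3 symbols at member loci were few. For comparison, 347 of all 11293 loci with a total of at least 100 were members, and 1.87% of the coding ones. Those are counts of loci, while the family counts are of symbols. The Slc transporters had 9 of 232 symbols (3.88%), the Zfp zinc finger genes 6 of 305 (1.97%), the Ccdc genes 3 of 98 (3.06%) and the Fam genes 3 of 176 (1.70%). The Klhl genes, substrate adaptors of cullin 3 ubiquitin ligases, had 6 of 26 (23.1%), namely Klhl3, Klhl11, Klhl28, Klhl29, Klhl33 and Klhl34. Olfactory receptors (Olfr) had 3 of 11 (27.3%), of which Olfr458 was the most abundant with 1597 ± 304 total and 0.959 ± 2.31 compatible fragments. Olfr458 and Prss37 were the members that had a Tas2r gene as the next locus on a side, in both cases the lower-coordinate one, Tas2r126 at 24611 bases and Tas2r108 at 20338 bases. For Olfr458, Olfr457 on the higher side was nearer, at 10144 bases.

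Exon models of the members were shorter than those of the other loci, and over all classes they had fewer transcripts and exons. The median exonic length was 1758 bases, with quartiles of 738 and 3371, and that of the other loci was 4455 bases. At 119 members (34.3%) the exonic length was under 1 kb, beside 4.64% of the other loci. A single transcript was annotated at 61.1% of members and 23.0% of other loci, and the authors' merging had added a new isoform at 17.003% and 49.9%. The median of the largest exon number was 4 at members and 10 at other loci. Coding loci alone differed the same way in length, with a median of 2815 against 4628 bases. Noncoding loci did so too, with 765 against 1017 bases, but a single transcript was annotated at 78.3% of noncoding members and 77.8% of other noncoding loci, and the median of the largest exon number was 2 against 1.

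Models with a single exon made up 84 members (24.2%) and 4.89% of the other loci. The direction depended on the gene class. Single-exon models were 7.18% of coding members and 1.77% of other coding loci, but 46.1% of noncoding members and 65.4% of other noncoding loci. Coding members with a single exon included Adrb1, Olfr458, Klhl34, the histone gene Hist1h4k and the potassium channel gene Kcnj11. Of the 609 single-exon loci with a total of at least 100 and any compatible fragment, 410 had a share of 90% or more, 115 from 10 to 90% and 84 under 10%.

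**Figure D4:**
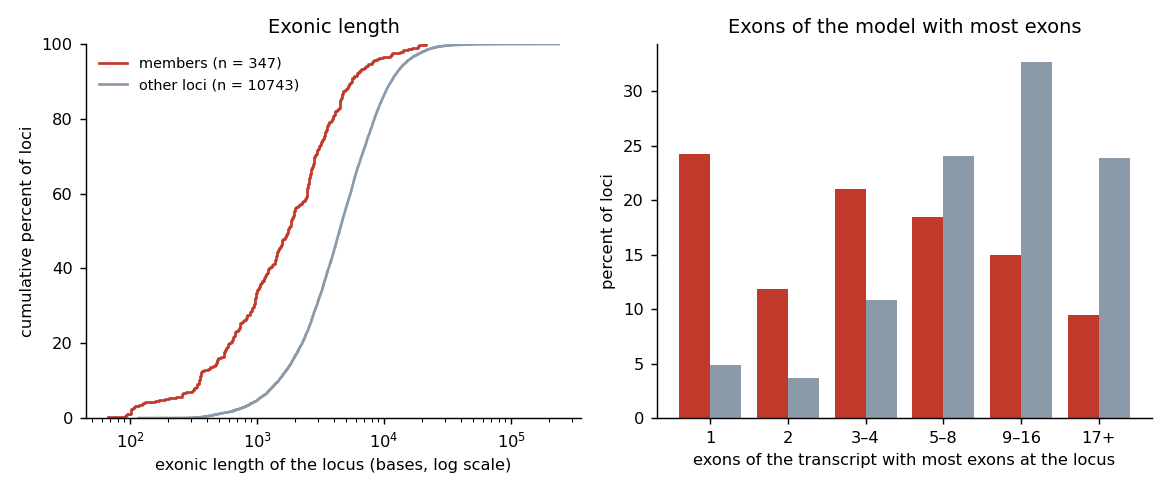
Left, cumulative percent of loci by exonic length on a log axis, and right, percent of loci by the exon number of the transcript with most exons, for the 347 members (red) and the 10743 other loci (grey). The member curve lies to the left, with medians of 1758 and 4455 bases, and single-exon models are 24.2% of members against 4.89% of other loci.

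Repeated sequence was looked at in single-exon loci with 1 symbol and a GENCODE M21 transcript, as an exact run of 50 bases found in another gene. Such a run was present at 50 of 78 members (64.1%) and at 377 of 484 other loci (77.9%). Among pseudogenes the percents were 81.0 and 98.6. Among coding loci the order was the opposite, with 8 of 14 members (57.1%) and 68 of 162 other loci (41.98%). RP24-457N12.1 shared a run with 345 other genes.

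A later annotation reached past the authors' models at more members than other loci. GENCODE M21 extended the same gene at least 500 bases beyond the locus at 79 of 339 members (23.3%) and at 11.1% of the other loci. On the 3′ side of one-strand loci the percents were 17.2 and 7.72, and on the 5′ side 12.03 and 5.37. Adrb1 was extended by 8251 bases at its 3′ end, beyond a model of 2491 bases. Eif4ebp2, a repressor of cap-dependent translation, was extended by 4006 bases, and it had 2854 total and 156 compatible fragments. Lnpep, a membrane aminopeptidase, was extended by 6313 bases and had 3208 total and 116 compatible fragments. Hint3 was extended by 11153 bases at its 5′ end. Camk2b, Gnai1 and Lrrc6 were not extended. Whether fragments of these extensions entered the totals was not tested, since the table gives no position of fragments within or beyond a locus.

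Untranslated sequence, as annotated later in GENCODE M21, was also shorter. It was read from the GENCODE M21 version of the reference transcripts named in the authors' annotation, which can differ from the authors' models. At Eif4ebp2, for example, it was 5421 bases, beside 1786 exonic bases in the authors' models. Among loci with a single coding gene, 21 of 149 members (14.1%) had no untranslated base in these transcripts, beside 41 of 6139 other loci (0.668%). Other GENCODE M21 transcripts of the same genes were not read. The median untranslated length was 628 bases at members and 1431 at other loci. Members with no untranslated base in these transcripts included Olfr458, Zfp445, Klhl33, Klhl34, Defb14, a beta-defensin, and Hist1h4k. The GENCODE M21 gene nevertheless reached 7385 bases past the 3′ end of the Zfp445 locus. At Olfr458 it reached 4179 bases past the 5′ end.

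In the authors' annotation, overlap with another gene was less frequent at members over all classes, but not among noncoding loci. Genes that overlapped each other within the locus, on either strand, were present at 60 members (17.3%) and at 36.3% of the other loci. Overlap on opposite strands was present at 48 members (13.8%) and 30.1% of the other loci, and overlap of exons at 5.48 and 19.8%. Among coding loci any overlap was present at 23.6 and 37.6%, and among noncoding loci at 9.21 and 9.51%. The later annotation did not show this deficit. GENCODE M21 placed exons of a gene not named at the locus within 18.2% of members and 17.7% of other loci. For coding loci these percents were 23.6 and 18.1, and for noncoding loci 11.2 and 10.6. Most members, 81.8%, held a single symbol, beside 61.5% of the other loci. The most abundant members with opposite-strand overlap were the loci of Spry4, Tnks, Dyrk2 and Cpne8. Dyrk2, a protein kinase, shares its locus with RP23-282M20.1 and had 3466 total and 173 compatible fragments. Whether the counting used strand is not given in the sources used here, so reads from a gene and its antisense partner cannot be told apart.

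A more abundant neighbour was one within 5 kb whose compatible mean exceeded the total of the locus. It was present at 38 members (11.0%) and 19.6% of the other loci. Members had lower totals than other loci, and with totals under 1000 in both sets the percents were 11.7 and 28.7. The neighbour lay on the opposite strand at 21 of the 38 members (55.3%) and at 637 of the 2110 other loci (30.2%). It lay on the same strand at 7 (18.4%) and 401 (19.0%). At the remaining 10 members (26.3%) and 1072 other loci (50.8%), the locus or the neighbour held genes on both strands. Because this last part differed, the opposite-strand shares are not directly comparable. The neighbour was on the higher-coordinate side at 24 members and 1054 other loci, and on the lower at 14 and 1056.

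Fam20a, a secretory pathway pseudokinase, had the most abundant opposite-strand neighbour. It had 155 compatible and 2838 total fragments, and Prkar1a, a regulatory subunit of protein kinase A, lay 92 bases beyond its 3′ end with 14279 compatible fragments. Cox7a1, a subunit of cytochrome oxidase, had 9.24 compatible and 140 total fragments, and Capns1, the small calpain subunit, lay 913 bases beyond its 3′ end with 5790 compatible fragments. Nfe2, an erythroid transcription factor, had 0.439 and 134 fragments, with Hnrnpa1, an RNA-binding protein gene of 5603 compatible fragments, 3256 bases beyond its 3′ end. Gm15506 and 1700026J14Rik, both long noncoding, started 174 and 94 bases from Prkrir and Atp6v0e2, which had 3484 and 2210 compatible fragments and lay head to head with them. In these pairs the neighbour's level was between 5.03 and 41.8 times the member's total.

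On the same strand, Klhl11 had 23.6 compatible and 2434 total fragments and lay 3611 bases downstream of Acly, which encodes ATP citrate lyase and had 5986 compatible fragments. The long noncoding gene 9030622O22Rik had 144 and 1921 fragments and lay 2673 bases downstream of Foxa2, an endoderm transcription factor with 5415. Gm20638 had 0.287 and 341 fragments and lay 606 bases upstream of Bdnf, the neurotrophin that taste buds use to attract nerve fibres, with 4778 compatible fragments. Ccdc138 had 84.8 and 1053 fragments and lay 3814 bases downstream of Ranbp2, a nucleoporin gene with 4364. Zfp541 had 0.757 and 122 fragments and lay 2129 bases upstream of Napa, a vesicle fusion adaptor gene with 2828. Whether fragments of these neighbours entered the totals of the members was not tested.

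Strand and spacing, which the rule did not use, were looked at after the data had been seen, and no test was made. Of 299 members with genes on 1 strand, 186 (62.2%) were on the minus strand and 113 on the plus strand, and of the other loci 50.05% of 7505 were on the minus strand. Among coding members the minus share was 64.3%, and among multi-exon members 63.3%. Another locus lay within 1 kb on the lower-coordinate side of 3 of 343 members (0.875%), and within 1 kb on the higher-coordinate side of 26 of 346 (7.51%). For other loci the percents were 14.9 and 15.6, nearly equal on both sides. The 3 members were the loci of Fam20a, of Galnt16 and of Mir30d with 2 noncoding genes.

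The deficit of near neighbours on the lower-coordinate side held for both strands. It was 0.893% of plus-strand members beside 18.1% of other plus-strand loci, and 1.09% of minus-strand members beside 11.5% of other minus-strand loci. Among noncoding loci it was 0.676% beside 7.43%, while the higher-side percents were 9.27 and 10.7. The side with fewest neighbours was thus the lower-coordinate one for genes of either orientation. Within 5 kb, a locus lay on the lower side of 8.75% and on the higher side of 19.1% of members, beside 34.6 and 35.3% of other loci. The median distance to the next locus was 40125 bases on the lower side and 25425 on the higher side of members, beside 10425 and 10399.

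Both measures varied with the compatible share. From the lowest share band, under 1%, to the highest, 90% or more, the percent of loci with a lower-side neighbour within 1 kb was 0, 0.813, 2.60, 2.86, 5.04, 8.62, 7.73, 10.5 and 17.2. On the higher side it was 7.59, 7.26 and 7.79 in the bands of the members, and between 12.8 and 16.4 in those above them. The minus-strand percent was between 59.2 and 67.6 in the bands up to 60% and declined to 48.6 in the highest. In the plot by share band, the loci from 10 to 60%, which are no members, also lay apart from the highest band in both measures.

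**Figure D5:**
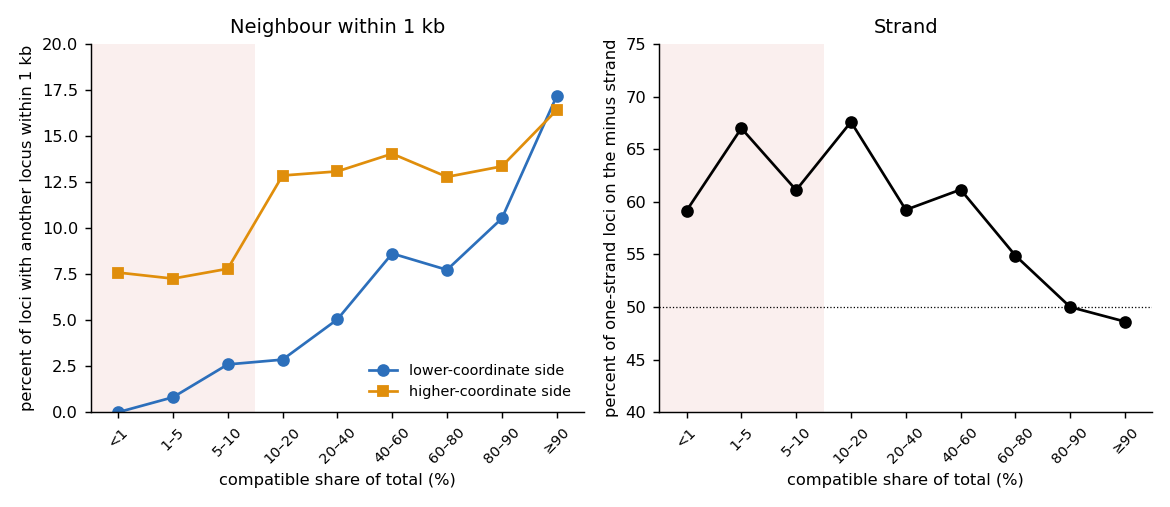
Left, percent of loci with another locus within 1 kb on the lower-coordinate (blue) or higher-coordinate (orange) side, and right, percent of one-strand loci on the minus strand, by band of compatible share for loci with a total of at least 100. Shading marks the bands of the members, where the lower-side percent is 0 to 2.60 and the higher-side percent 7.26 to 7.79, and the dotted line marks 50%.

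Totals of the members varied more between libraries than those of other loci, with a median coefficient of variation of 0.288 beside 0.186. Among noncoding loci the order was the opposite, 0.307 beside 0.371. The largest coefficient of variation among members was 1.41, at Gm9923 with 1439 ± 2027 total fragments. Dsg4, a desmoglein of hair, followed with 625 ± 824 total and 0.504 compatible fragments. Totals were lower at members than at other loci, with medians of 298 and 899. With totals under 1000 in both sets, the medians of the coefficient of variation were 0.313 and 0.252.

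The labelled tissue was checked against its markers. The 10 marker genes of type I, II and III taste cells and the 3 keratins of lingual epithelium each had at least 1089 compatible fragments. Fibroblast markers Col1a2 and Col3a1 had 5.31 and 5.32, and the haemoglobin genes Hba-a1 and Hbb-bs 0.135 and 0.115. None of these markers was at a member locus.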

How the data were processed

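RNA from 21 circumvallate taste bud libraries was measured by sequencing. Per the submitters' processing notes the tools were Trimmomatic, FastQC, TopHat, Cufflinks, Bowtie2 and Cuffdiff, on build GRCm38.p4. The sources used here give neither versions nor settings. Per the file headers, the table analysed here is Cuffdiff's variance model output. For compatible and for total fragments it holds a signal that the authors averaged over libraries after division by size factors, beside a variance. This deposited signal was not divided by length. Exon models came from the Cufflinks annotation that the authors deposited with it. Variances of loci with fragments in 1 library matched, within a relative tolerance of 0.0001, squares summed within sets of 8, 7 and 6 libraries and divided by 21 (1595 loci), whereas the labels give 7 per group. Over all loci the authors' means added up to 21881979 compatible and 23769781 total fragments.

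Table loci were joined to the annotation by position. Gene classes came from GENCODE M21 on GRCm38 (449 of 458 member symbols by transcript ID, 2 by symbol, 7 unmatched) and RefSeq on GRCm38.p6. Table loci never overlap, so the planned overlap was measured between genes within a locus. No test was run. The members, lists and questions were chosen with earlier results of these data known. Strand, flank, later-annotation, untranslated-length and repeated-run measures, the printed sequences and the genes described by role were chosen after values had been seen.

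Named genes were the 10 members with most total, the 3 with most total per class, the 3 nearest each limit on either side, the 5 lowest shares, the 5 same-strand and 5 opposite-strand pairs with the most abundant neighbour, Plcb2, and families with at least 3 members as counts. Others were named after their values were seen. Selection and counting steps were tested on simulated loci. Alternatives comprised other share and total limits, exon overlap, other neighbour distances, levels by total, longest transcripts, symbol patterns and one-symbol loci. The software was scipy 1.17.1, numpy 2.4.6 and pandas 2.3.3 under Python 3.11.15, and figures were drawn with matplotlib 3.10.9.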

Additional observations from a re-analysis of the deposited data

How the results depend on the processing

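Of the alternatives to the member rule and to the measures, 26 left the value within its counting interval (95%) or within 1.5 times the count, and 10 did not. The number of members was 109 with a total of at least 500 and 550 with loci at 0 compatible fragments kept. Gene overlap was present at 12.6% of members with a share under 5%, at 22.9% with a total of at least 500, and at 5.48% by exons. A more abundant neighbour was present at 4.32% within 1 kb and at 27.1% within 20 kb. Protein-coding loci were 62.4% of members with a share under 20% and 66.1% with a total of at least 500, where the minus-strand percent was 68.5. The cause of these shifts was not tested, beyond the fewer or added loci and distances that each setting takes by construction. The lower-side percent within 1 kb stayed between 0.376 and 1.96 under its 7 alternatives, which were chosen after seeing the data. No paired analysis was possible because the table holds no value per library, and for the same reason no library could be left out. At 43 members the compatible mean stands for no more than 3 scaled fragments, which limits the precision of their shares.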
